A study of Homo sapiens with 12 samples.

Results

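The genes described here are 36 components of the signalling routes that leave the Kit receptor and the erythropoietin (EPO) receptor, from the 2 receptors themselves to the kinases, adaptors, phosphatases and ubiquitin ligases that act after them. They were picked by symbol for their function, and the rule uses no measured value, though earlier results of these data were known when the list was chosen. All 36 had a row among the 54628 genes of the RNA-seq table, and 34 of them passed the filter on low counts and could be tested. Their transcripts were measured in HUDEP-2, a human line of erythroid precursors that grows without limit in culture. The cells had received a lentivirus coding for KRAB-dCas9, a repressor fusion that a guide RNA brings to a chosen DNA site, and had been sorted on its GFP marker. The guide was either a control (sgControl) or one directed to an element upstream of the transcription factor gene EGR1 (sgEGR1). All cells were expanded with SCF, EPO, dexamethasone and doxycycline, were starved for 5 h in a medium for which neither SCF nor EPO was listed, and then received 50 ng/mL SCF or PBS for 1 h. The 4 groups (sgControl with PBS, sgControl with SCF, sgEGR1 with PBS and sgEGR1 with SCF) had 3 libraries each, which gave 12 in all from 1 cell line. RNA came from whole cultures, in which fewer cells with a transcript and less of that transcript per cell cannot be told apart.

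Stem cell factor (SCF) binds KIT, a receptor tyrosine kinase, and the phosphorylated receptor recruits adaptors such as GRB2 and SHC1, which bring SOS exchange factors to RAS and so start the RAF, MEK and ERK kinases. EPO binds EPOR, a cytokine receptor with no kinase of its own, which relies on JAK2 and on the transcription factors STAT5A and STAT5B. Erythroid precursors need both receptors, Kit mainly for expansion and EPOR for survival and maturation. Phosphatases (PTPN6, INPP5D), ubiquitin ligases (CBL, CBLB) and the adaptor SH2B3 restrain these routes. The activity of nearly all of these proteins is set by phosphorylation or binding, which a transcript level does not show.

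The libraries held 23498065 to 32039680 counts. Levels are given as normalised CPM, the count of a gene divided by its TMM-scaled library total and put on a common scale, and 3 counts in a library corresponded to 0.0937 to 0.128 CPM. The 10 erythroid precursor markers examined were all above 1 CPM on average, with a summed level of 7099 to 8235 CPM per library. Of these, TFRC averaged 3521 CPM, and HBG1 ran from 0 to 166 CPM between libraries. The 5 megakaryocyte and 5 myeloid markers summed to no more than 1.15 and 0.719 CPM, with PF4, GP9, PPBP, MPO and ELANE at 0. Of 4 mast cell markers only TPSAB1 was above 1 CPM (84.9 to 209 CPM). EGR1, the gene the guide was directed at, stood at 10.9, 5.99 and 7.45 CPM in sgControl cells after PBS and at 208, 239 and 171 CPM after SCF. In the libraries labelled sgEGR1 it stood at 2.04, 1.12 and 0.977 CPM after PBS and at 40.4, 57.4 and 204 CPM after SCF. Against its label, the third library of sgEGR1 with SCF had as much EGR1 as sgControl cells, and the main calls of members that rest on it are also given without it. Replicate 1 of all groups also stood apart from replicates 2 and 3, and the main SCF and guide comparisons of the members are set beside that difference. Levels and ratios between genes are pooled over the replicates.

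The receptors were among the most abundant transcripts of the list. KIT, on chromosome 4 (hg38, 54657267 to 54740783, plus strand, 21 exons in its MANE Select transcript), had the highest normalised CPM of all 36 genes, 513 CPM ± 26.5 (SD over 12 libraries). EPOR, on chromosome 19 (11377207 to 11384342, minus strand, 8 exons), reached 307 CPM ± 19.7. Levels of different genes can be compared only per length, and the level per kilobase of MANE Select transcript was 127 ± 8.15 for EPOR and 99.6 ± 5.16 for KIT. EPOR was above KIT on this scale in all 12 libraries, with no overlap (lowest EPOR 112, highest KIT 108). The ratio of KIT to EPOR per kilobase was 0.716 ± 0.0803 in sgControl cells after PBS, 0.774 ± 0.0475 after SCF, and in sgEGR1 cells 0.805 ± 0.0245 after PBS and 0.851 ± 0.0359 after SCF (SD, n = 3 each).

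MAP2K2, a MEK kinase that phosphorylates ERK, headed the order per kilobase of MANE Select transcript, whereas with the length of all annotated exons EPOR came first (99.6 CPM per kilobase) and MAP2K2 second (46.6). Its level was 339, 392 and 364 CPM in sgControl cells after PBS and 347, 363 and 352 CPM after SCF. In sgEGR1 cells it was 364, 361 and 376 CPM after PBS and 346, 371 and 367 CPM after SCF. The groups overlapped, and the mean over 12 libraries came to 210 CPM per kilobase ± 8.38. Below EPOR and KIT came RPS6KA1, a kinase that ERK activates, at 53.8 ± 4.55. Per kilobase of MANE Select transcript, MAP2K2, EPOR, KIT and RPS6KA1 kept the first 4 places, in that order, in every library, and none of them overlapped its neighbour. From the fifth place down the order was close: of the 35 neighbouring pairs in the whole order only 10 did not overlap over the 12 libraries. INPP5D, the lipid phosphatase that opposes PI3K, STAT5A and ARAF, a RAF kinase, overlapped at 38.7 ± 1.12, 38.3 ± 5.00 and 37.5 ± 1.07 CPM per kilobase. The next 7, PTPN11, AKT1, AKT2, GRB2, STAT5B, KSR1 and NRAS, lay between 26.5 and 30.6 and overlapped as well. The remaining members ran from SHC1 (21.0), an adaptor of activated receptors, down to CBL (2.24).

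**Figure D1:**
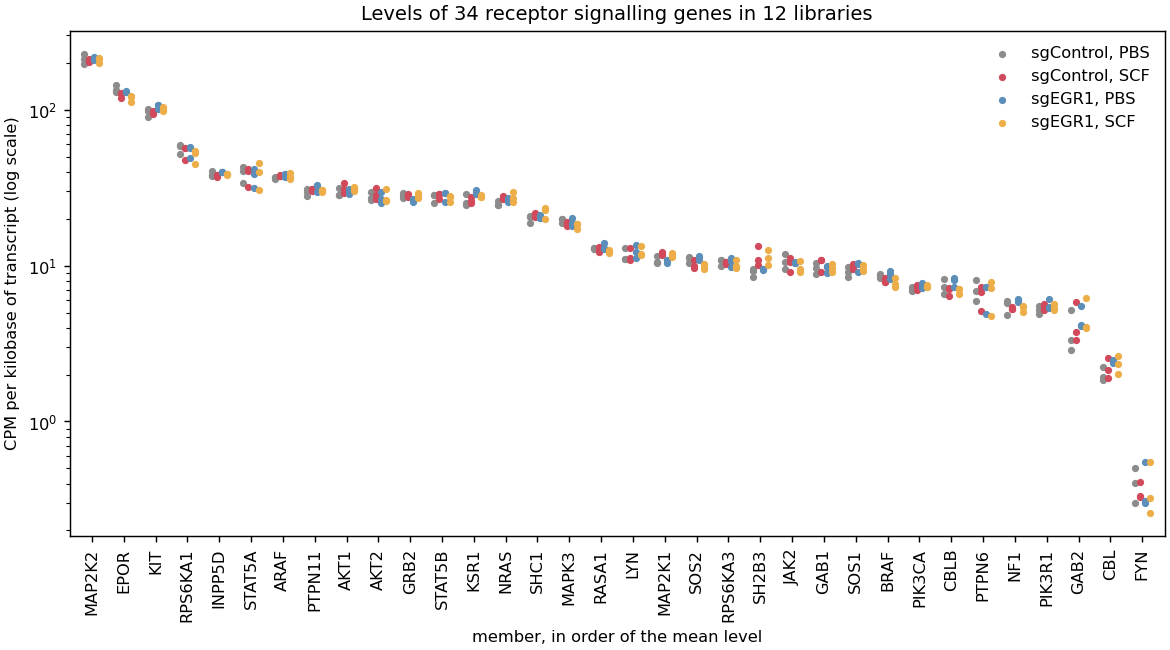
Level of the 34 members above 1 CPM in CPM per kilobase of MANE Select transcript (log axis), 1 point per library, with colours for the 4 groups. MAP2K2 (210), EPOR (127), KIT (99.6) and RPS6KA1 (53.8) stand above the rest, CBL (2.24) and FYN (0.380) below, and the groups lie on top of each other for most genes. PIK3CD and HRAS are not drawn.

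At the low end were 3 members. FYN, a SRC family kinase, had 30 to 58 counts per library, with 1.08, 1.46 and 1.82 CPM in sgControl cells after PBS and 1.19, 1.20 and 1.48 CPM after SCF. In sgEGR1 cells its level was 2.00, 1.12 and 1.08 CPM after PBS and 2.00, 1.18 and 0.937 CPM after SCF, and the groups overlapped. PIK3CD, the leukocyte-rich catalytic PI3K subunit, had no count in 8 libraries and 10, 7, 5 and 4 counts in the other 4. HRAS was listed at 0 in 11 libraries and at 3 counts in sgEGR1 replicate 3 after SCF; whether the counting lost reads of this short gene was not tested. Neither PIK3CD nor HRAS was tested.

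Related genes were unequally represented. Among the MEK kinases MAP2K2 exceeded MAP2K1 18.6-fold per kilobase (SD 1.22 over 12 libraries), and among the RAF kinases ARAF exceeded BRAF 4.54-fold ± 0.343. RPS6KA1 was 5.17-fold ± 0.420 above RPS6KA3, and the SRC family kinase LYN 33.4-fold ± 8.18 above FYN. The phosphatase PTPN11, which promotes RAS activation, was 4.77-fold ± 0.944 above PTPN6, which ends receptor signals. CBLB exceeded CBL 3.30-fold ± 0.554 and GAB1 exceeded GAB2 2.39-fold ± 0.679. These SDs include the replicate 1 difference, and GAB2 averaged 34.7 CPM in replicate 1 and 22.6 CPM in replicates 2 and 3. In these 7 pairs the first gene was higher in all 12 libraries, and it remained higher when coding length replaced transcript length, at 12.4-fold for MAP2K2 and 2.11-fold for ARAF. The other pairs were close. STAT5A stood 1.38-fold ± 0.129 above STAT5B, which became 1.02-fold per coding length. SOS2 stood 1.10-fold ± 0.113 above SOS1 and AKT1 1.10-fold ± 0.0806 above AKT2, and both orders turned when coding length was used (0.682 and 0.618), so that neither gene of these pairs can be called the higher. NRAS, the only RAS gene of the list with more than 3 counts in a library, was at 26.5 CPM per kilobase ± 1.52, and PIK3CA, the broadly used catalytic PI3K subunit, at 7.29 ± 0.239.

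**Figure D2:**
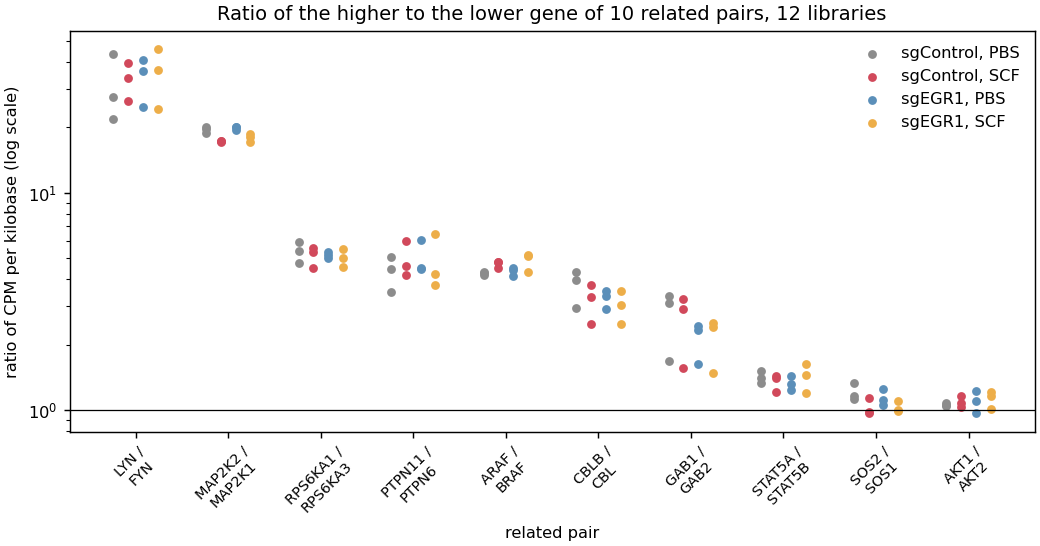
Ratio of CPM per kilobase of the higher to the lower gene in 10 related pairs (log axis), 1 point per library, with colours for the 4 groups and a line at a ratio of 1. LYN over FYN (33.4) and MAP2K2 over MAP2K1 (18.6) are the most unequal, while STAT5A over STAT5B (1.38), SOS2 over SOS1 (1.10) and AKT1 over AKT2 (1.10) lie near the line.

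Some of these exons are shared with other genes. In the annotation used here, 36.75% of the PIK3CA transcript, 22.42% of AKT1, 15.93% of RASA1 and 12.72% of MAP2K1 lie opposite exons of genes on the other strand, so their levels are uncertain if reads were counted without strand. KIT, EPOR and SOS2 have no such overlap and SH2B3 has 1.27%. On the same strand, 9.62% of SHC1 and 7.17% of KSR1 lie over exons of other genes, which counting by strand does not separate. The study's methods describe the libraries as strand-specific. For the listed pseudogenes of SHC1, NF1, ARAF and PTPN11 no counts were found, where a symbol without a row was also taken as 0. BRAFP1 had 3 counts and MAP2K1P1 had 5 over the 12 libraries.

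Most members varied little between libraries, and the share of all genes that did so was not computed. The coefficient of variation over the 12 libraries, groups and all, was under 10% for 28 of the 36. The exceptions above 1 CPM were FYN (27.1%), GAB2 (24.3%), PTPN6 (17.4%), SH2B3 (14.05%), STAT5A (13.1%) and CBL (12.2%).

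The first comparison asked whether 1 h of SCF changed the transcripts of its own receptor and of the components after it. KIT stood at 522, 462 and 508 CPM in sgControl cells after PBS and at 502, 482 and 494 CPM after SCF. In sgEGR1 cells it stood at 524, 555 and 548 CPM after PBS and at 511, 535 and 509 CPM after SCF. The SCF and PBS libraries overlapped within both guides. The log2 fold change was -0.01 (95% interval -0.12 to 0.10) in sgControl cells and -0.07 (-0.17 to 0.04) in sgEGR1 cells (-0.05 without the third library labelled sgEGR1 with SCF), and averaged over the guides it was -0.04 (-0.11 to 0.04; edgeR quasi-likelihood test, adjusted p = 0.575). A two-sided exact permutation test within each guide gave p = 0.27 over 400 arrangements. A change of the KIT transcript was therefore not detectable, and the interval of the average response runs from 0.924-fold to 1.03-fold.

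EPOR was lower after SCF. It stood at 313, 346 and 321 CPM in sgControl cells after PBS and at 285, 308 and 302 CPM after SCF. In sgEGR1 cells it stood at 314, 313 and 319 CPM after PBS and at 269, 297 and 291 CPM after SCF. Every SCF library lay below every PBS library of the same guide. Averaged over the guides it came to 0.910-fold of the PBS level (log2 -0.14 ± 0.04 SE), with an adjusted p of 0.0360 in edgeR over all 15492 genes tested, and the exact permutation p was 0.005, the smallest that 400 arrangements can give. Within a single guide the change did not pass (adjusted p 0.260 and 0.196 in edgeR), and it was also lost in the average when any of 10 libraries was left out (adjusted p 0.0540 to 0.0881), all but sgControl PBS replicate 1 and sgEGR1 SCF replicate 2. With no filter on low counts the adjusted p was 0.0855.

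SH2B3, an adaptor that restrains JAK2 and KIT, was the only member called higher in the fit without a replicate term. It stood at 50.5, 51.4 and 46.1 CPM in sgControl cells after PBS and at 72.5, 58.7 and 54.7 CPM after SCF. In sgEGR1 cells it stood at 51.2, 51.4 and 51.5 CPM after PBS and at 68.6, 61.1 and 54.8 CPM after SCF. The SCF libraries lay above the PBS libraries in both guides, and the highest SCF value was that of replicate 1 each time. The average response was 1.23-fold (log2 0.29 ± 0.07 SE, adjusted p = 0.0234 in edgeR). The call was lost without sgControl PBS replicate 3, sgEGR1 PBS replicate 2 or sgEGR1 PBS replicate 3 (adjusted p 0.0627, 0.0515 and 0.0540). With replicates 2 and 3 alone the log2 fold change was 0.19 (adjusted p = 0.0317).

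SOS2, a RAS exchange factor, fell. It stood at 62.1, 57.0 and 62.7 CPM in sgControl cells after PBS and at 59.7, 53.0 and 54.7 CPM after SCF. In sgEGR1 cells it stood at 63.1, 62.3 and 59.8 CPM after PBS and at 56.2, 54.9 and 52.6 CPM after SCF. The groups overlapped in sgControl cells and did not in sgEGR1 cells. Averaged over the guides it came to 0.902-fold of the PBS level (log2 -0.15 ± 0.04 SE, edgeR adjusted p = 0.0394). It was called in only 2 of the 12 fits that left out a library, those without sgControl PBS replicate 2 or sgControl SCF replicate 1, and the adjusted p was 0.0535 to 0.106 in the other 10. The adjusted p was 0.116 with library totals in place of TMM scaling and 0.102 with no filter on low counts. Its partner SOS1 had a log2 fold change of 0.04 (adjusted p = 0.719).

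**Figure D3:**
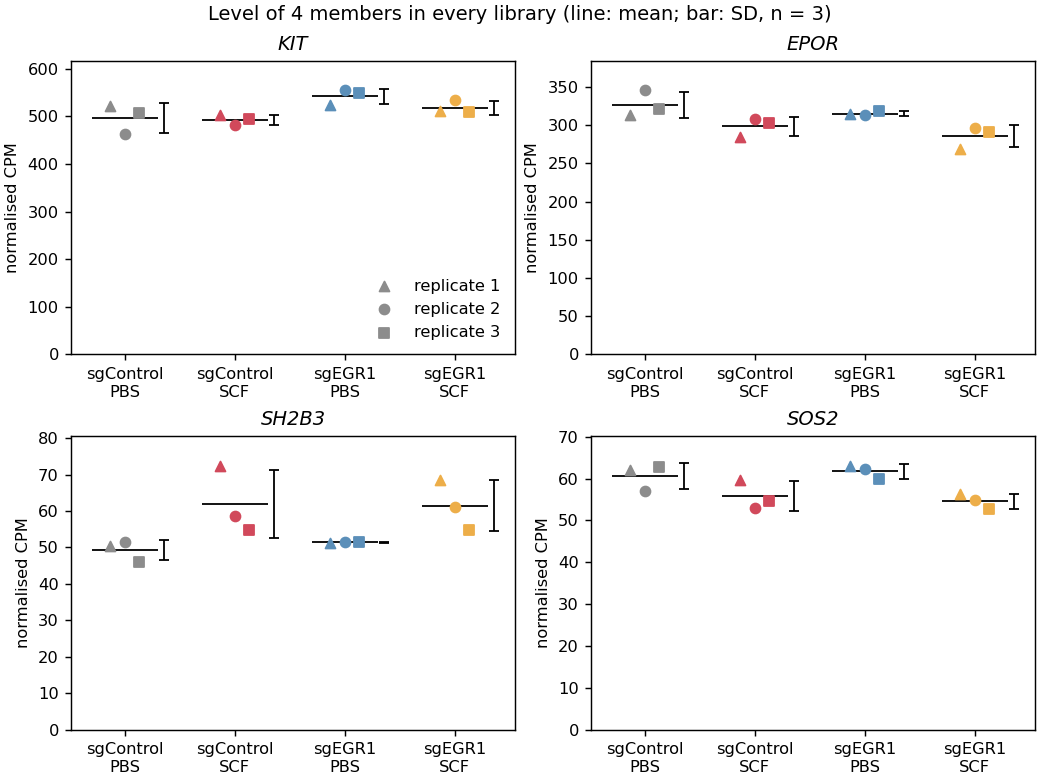
Normalised CPM of KIT, EPOR, SH2B3 and SOS2 in each of the 12 libraries, by group, with the replicate number as the symbol, the mean as a line and the SD as a bar (n = 3). KIT after SCF lies within the range after PBS or close to it, EPOR is lower and SH2B3 higher after SCF with both guides, and replicate 1 has the highest SH2B3 value after SCF.

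The promoters of these 4 genes are shown because they carry the members whose change was tested most closely. They are RefSeq sequences of GRCh38.p14 from 250 bases before to 50 bases after the RefSeq start of each gene, which for KIT and EPOR differs from the gene boundary given above, and are written 5' to 3' on the strand of the gene. They lie at chr4:54657707-54658006 (plus strand, KIT), chr19:11384265-11384564 (minus, EPOR), chr12:111405673-111405972 (plus, SH2B3) and chr14:50231529-50231828 (minus, SOS2). Capitals mark the single match found, a GATA motif on the opposite strand.
KIT: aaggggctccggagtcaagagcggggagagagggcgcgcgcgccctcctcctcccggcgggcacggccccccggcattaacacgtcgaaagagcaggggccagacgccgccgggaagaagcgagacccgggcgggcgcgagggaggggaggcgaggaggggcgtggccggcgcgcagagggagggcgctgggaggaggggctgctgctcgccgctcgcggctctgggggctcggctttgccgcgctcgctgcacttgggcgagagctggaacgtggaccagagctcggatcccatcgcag
EPOR: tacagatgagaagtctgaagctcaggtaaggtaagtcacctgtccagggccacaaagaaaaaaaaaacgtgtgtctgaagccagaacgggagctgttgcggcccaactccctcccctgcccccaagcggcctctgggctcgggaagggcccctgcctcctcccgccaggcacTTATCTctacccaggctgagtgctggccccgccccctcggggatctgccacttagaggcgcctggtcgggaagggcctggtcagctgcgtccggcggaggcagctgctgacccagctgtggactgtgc
SH2B3: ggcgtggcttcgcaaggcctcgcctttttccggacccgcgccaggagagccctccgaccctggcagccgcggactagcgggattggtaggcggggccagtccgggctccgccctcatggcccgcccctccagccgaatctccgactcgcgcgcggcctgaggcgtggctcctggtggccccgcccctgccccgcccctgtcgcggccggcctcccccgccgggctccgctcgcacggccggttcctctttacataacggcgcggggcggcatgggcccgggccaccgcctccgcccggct
SOS2: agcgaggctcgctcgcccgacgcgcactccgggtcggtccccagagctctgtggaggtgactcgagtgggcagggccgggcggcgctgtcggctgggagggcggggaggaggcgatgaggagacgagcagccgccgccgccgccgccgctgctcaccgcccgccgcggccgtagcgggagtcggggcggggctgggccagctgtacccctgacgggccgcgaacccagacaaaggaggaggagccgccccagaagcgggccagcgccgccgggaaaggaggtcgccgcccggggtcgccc

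Both strands of the 32 member promoters in the table were searched for 4 motifs; GAB1, PTPN11, CBL and LYN were not among them. The GATA motif AGATAA was found in EPOR, where it begins 78 bases before the start, and in NRAS, and in 10.3% of all 35116 promoters of this length. The EGR motif GCGTGGG was found in SHC1, MAPK3 and FYN, against 6.98% of all promoters. The ETS motif CCGGAAGT was found in SHC1, NRAS and NF1, against 4.14% of all. The AP-1 motif TGANTCA was found in no member promoter, against 7.71% of all. SHC1 and NRAS each held 2 of the motifs. A match is a run of letters and not a measured binding site.

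Over the list, 3 of the 34 members tested were called in the average SCF response, which is 8.82% against 9.03% of all genes tested. They were 1 higher and 2 lower, where 5.58% of all genes were higher and 3.45% lower. The share of members that moved was thus near that of all genes. The median absolute log2 fold change was 0.05 over the members and 0.10 over all genes, and the 95% interval lay within 1.25-fold of no change for 30 of 34 members (88.2%) and 50.6% of all genes. The width of an interval moves with level, and members and all genes were not compared at matched level. PTPN6, SH2B3, GAB2 and FYN were the members whose interval reached past 1.25-fold. Within sgControl cells 0 members were called in edgeR (2.89% of all genes were), with 4 at an unadjusted p under 0.05 (14.3% of all genes), and within sgEGR1 cells 0 were called (2.59% of all genes), with 8 at that level (15% of all genes). Some members separated without passing the test. In sgControl cells the SCF libraries did not overlap the PBS libraries for 6 members (19.6% of all genes), 4 on the higher side (SH2B3, NRAS, ARAF and MAP2K1; 10.4% of all genes) and EPOR and BRAF on the lower (9.24%). In sgEGR1 cells this held for 10 members (21.2% of all genes), 3 higher (GRB2, SH2B3 and MAP2K1; 11.2% of all genes) and 7 lower (EPOR, SOS2, NF1, RASA1, KSR1, INPP5D and CBLB; 10%). Without the third library labelled sgEGR1 with SCF it held for 14 (28.7% of all genes), with SHC1, NRAS and AKT1 added on the higher side (6 in all) and JAK2 on the lower (8 in all). With both guides, SH2B3 and MAP2K1 were higher without overlap (5.57% of all genes) and EPOR lower (3.47%).

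By role, the average log2 fold changes ran as follows. In the JAK-STAT group JAK2 was at -0.07, STAT5A at 0.01 and STAT5B at -0.01, none of them called. Among the adaptors beside SH2B3, GRB2 was at 0.04, SHC1 at 0.09, GAB1 at 0.06 and GAB2 at 0.11. NRAS was at 0.10 (adjusted p = 0.135 in edgeR), and the RAS inactivating proteins NF1 and RASA1 were at -0.11 and -0.07. In the kinase cascade BRAF was at -0.14 (adjusted p = 0.0604) and MAP2K1 at 0.13 (adjusted p = 0.0638), while ARAF, KSR1, MAP2K2, MAPK3, RPS6KA1 and RPS6KA3 lay between -0.09 and 0.01. The PI3K and AKT members lay between -0.05 (INPP5D) and 0.08 (AKT1), and the phosphatases PTPN11 and PTPN6 at -0.00 and -0.05. LYN was at -0.00, FYN at -0.10 and CBL at 0.04.

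CBLB, a ubiquitin ligase that targets activated receptors, had one of the 3 largest changes but was not called. It stood at 44.7, 49.2 and 55.7 CPM in sgControl cells after PBS and at 43.1, 47.6 and 48.2 CPM after SCF. In sgEGR1 cells it stood at 49.1, 56.0 and 54.6 CPM after PBS and at 44.5, 48.0 and 47.6 CPM after SCF. The groups overlapped in sgControl cells and not in sgEGR1 cells, and its average response of log2 -0.15 ± 0.06 (SE) had an edgeR adjusted p of 0.144.

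Members also differed between replicate 1 and replicates 2 and 3, with group held in the fit. Of the 34 members 15 were called (44.1%, against 26.6% of all genes), 6 higher (13.1% of all genes) and 9 lower (13.4%) in replicate 1. The adaptor GAB2 averaged 34.7 CPM in replicate 1 and 22.6 CPM in the other 2 (log2 0.62, adjusted p = 5.35e-06 in edgeR). PTPN6 averaged 11.2 against 15.9 CPM (log2 -0.51), STAT5A 121 against 156 CPM (log2 -0.37) and RPS6KA1 155 against 180 CPM (log2 -0.22). LYN, at 77.8 against 66.8 CPM, and AKT2, at 160 against 140 CPM, were higher in replicate 1. EPOR was called as well (log2 -0.08) and so was SH2B3 (0.17), while KIT was not (log2 0.01). The SH2B3 difference lay in the SCF libraries. After PBS its replicate 1 was at 50.5 CPM in sgControl cells (51.4 and 46.1 in replicates 2 and 3). In sgEGR1 cells it was at 51.2 CPM (51.4 and 51.5). The labels do not say what set replicate 1 apart.

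**Figure D4:**
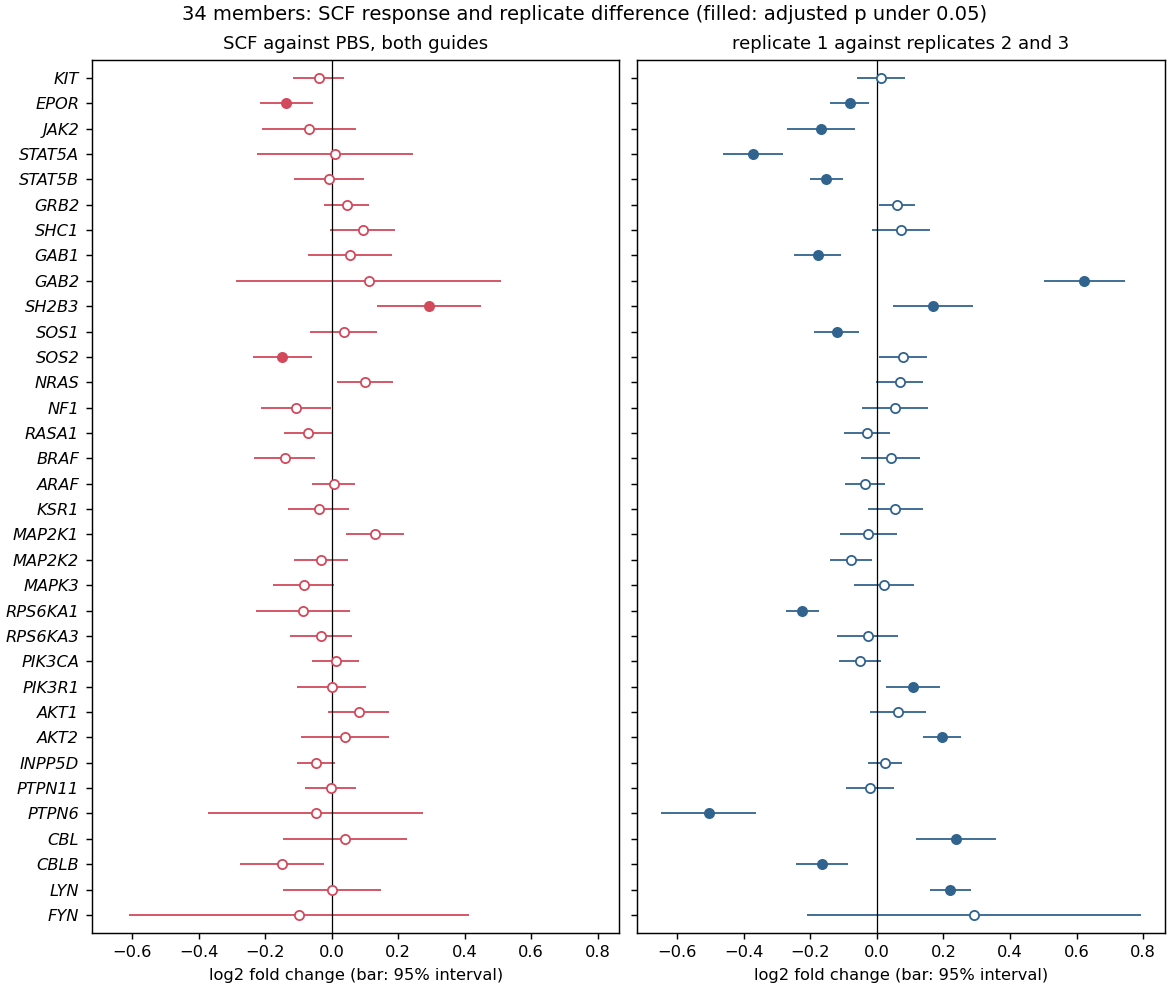
Log2 fold change of the 34 members tested with its 95% interval, for SCF against PBS averaged over both guides (left) and for replicate 1 against replicates 2 and 3 (right), with filled points where the adjusted p was under 0.05. EPOR, SH2B3 and SOS2 are filled on the left, and 15 members on the right, where GAB2 (0.62) and PTPN6 (-0.51) lie farthest from 0.

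With a term for replicate 1 in the fit, 8 members were called in the average SCF response (18.5% of all genes were). They were SH2B3, NRAS and MAP2K1 on the higher side (log2 0.29, 0.10 and 0.13; 10.2% of all genes were higher) and EPOR, SOS2, CBLB, BRAF and RPS6KA1 on the lower (-0.14, -0.15, -0.15, -0.14 and -0.09; 8.29% of all genes were lower). The adjusted p of EPOR was then 0.00232 and that of SH2B3 0.00201. The term holds the replicate 1 difference equal in all groups, and that of SH2B3 was not equal. The same fit called SH2B3 and EPOR in sgControl cells (8.32% of all genes) and EPOR, SOS2 and CBLB in sgEGR1 cells (8.56%). Replicates 2 and 3 alone gave 5 members in the average response (11.3% of all genes), SH2B3, SOS2, BRAF, CBLB and EPOR, and replicate 1 alone has 1 library per group and allows no test. When the third library labelled sgEGR1 with SCF was left out, only SH2B3 was called in the average response (log2 0.33, adjusted p = 0.0161; 6.95% of all genes were called). EPOR was then at -0.14 (adjusted p = 0.0666), SOS2 at -0.13 (0.106), BRAF at -0.12 (0.148), MAP2K1 at 0.14 (0.0863) and CBLB at -0.15 (0.215). With the replicate 1 term and without that library there were 8 again (15.4% of all genes), in which SHC1 took the place of BRAF, and within sgEGR1 cells SH2B3 alone (4.92%).

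The second comparison asked whether the guide directed at EGR1 changed these components. In edgeR 0 of 34 members were called after PBS and 0 after SCF, as were 0 of all 15492 genes (0%). For the members this also held with any 1 library left out. EGR1 itself was not called, at log2 -2.59 ± 0.80 (SE) after PBS (edgeR adjusted p = 0.999) and -1.03 ± 0.45 (SE) after SCF. The value after SCF includes the third library labelled sgEGR1 with SCF, at 204 CPM beside 40.4 and 57.4 CPM in replicates 1 and 2. With such standard errors, the missed call of EGR1 does not show how well the test finds a change in the members. The absence of calls alone cannot decide whether the guide left the members unchanged. At an unadjusted p under 0.05 there were 4 members after PBS (4.62% of all genes) and 0 after SCF (2.33%). The 4 were KSR1, the scaffold that holds RAF and MEK together (1.13-fold), KIT (1.09-fold), CBL (1.21-fold) and GRB2 (0.933-fold), each with an adjusted p of 0.999 in edgeR. With the replicate 1 term 0 members were called after either treatment, beside 0.0258% of all genes after PBS and 0.0129% after SCF. KIT was higher in the sgEGR1 libraries without overlap, at 524 CPM or more against 522 CPM or less after PBS and at 509 CPM or more against 502 CPM or less after SCF. The log2 fold change of KIT was 0.13 (95% interval 0.02 to 0.23) after PBS and 0.07 (-0.03 to 0.18) after SCF, and both exact permutation tests gave p = 0.1, the smallest that 3 against 3 allows. When the third library labelled sgEGR1 with SCF was left out, the value after SCF was 0.08. In replicate 1 after PBS the guides were close, with KIT at 522 CPM in sgControl and 524 CPM in sgEGR1 cells. With replicates 2 and 3 alone the log2 fold changes after PBS were 0.18 for KIT, 0.27 for KSR1, 0.34 for CBL and -0.10 for GRB2. None of these was called (edgeR adjusted p 0.0956 to 0.429). The ranges of the guides did not overlap for 3 members after PBS (9.31% of all genes), KIT and CBL higher (4.65%) and GRB2 lower (4.66%). After SCF they did not overlap for 2 (7.14% of all genes), KIT and KSR1 higher (3.61%) and none lower (3.53%); without the third library labelled sgEGR1 with SCF they did not overlap for 5 (16.8%), KIT, SHC1, NF1 and KSR1 higher and RPS6KA3 lower.

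EPOR did not separate between the guides, with log2 fold changes of -0.05 after PBS and -0.06 after SCF on the permutation scale (exact p = 0.4 for both). In edgeR the value after SCF was -0.06, and -0.08 without the third library labelled sgEGR1 with SCF. The 95% interval of the guide difference lay within 1.25-fold for 29 of 34 members after PBS (47.1% of all genes) and after SCF (49.3%), and PTPN6, STAT5A, GAB2, CBL and FYN were the exceptions both times. The intervals after SCF include the third library labelled sgEGR1 with SCF. The SCF response was also set against the guide in an interaction term: 0 members and 0% of all genes were called in edgeR, with 0 members at an unadjusted p under 0.05 (1.98% of all genes). The test over all 4 groups called 0 members (3.90% of all genes), with 6 at an unadjusted p under 0.05 (15.3% of all genes). With the replicate 1 term 6 members passed that test, SH2B3, EPOR, SOS2, CBLB, RPS6KA1 and GAB2 (12.3% of all genes).

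**Figure D5:**
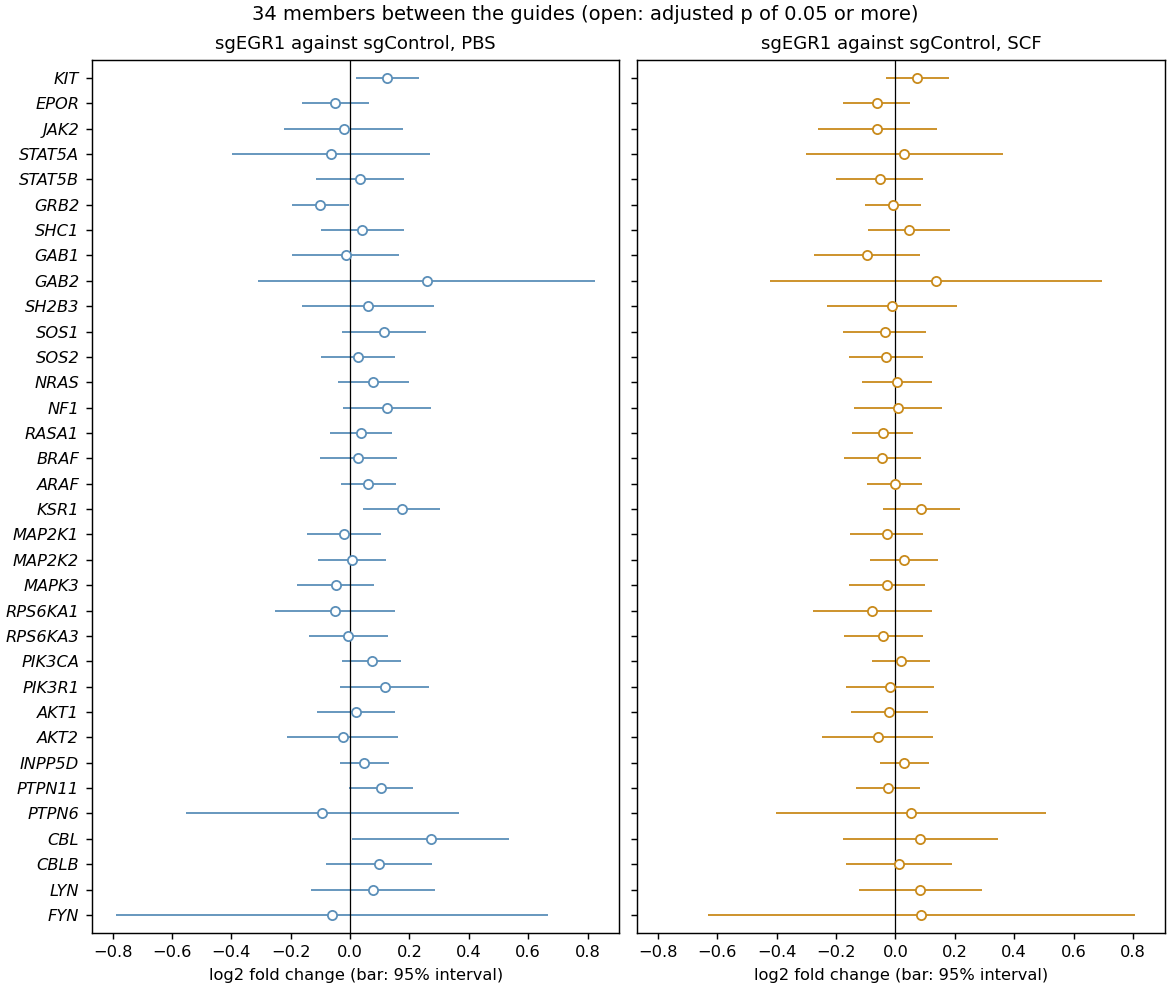
Log2 fold change of the 34 members between sgEGR1 and sgControl cells after PBS (left) and after SCF (right), with 95% intervals and open points since no adjusted p was under 0.05. KIT lies to the right of 0 in both panels (0.13 and 0.07), and GAB2, PTPN6 and FYN have the widest intervals.

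The pathway holds further genes beside the list. Of 55 such genes 45 could be tested, and 5 of them (11.1%) were called in the average SCF response, 3 higher and 2 lower, near the 9.03% of all genes. IRS2, an adaptor of the insulin receptor that other receptors also use, fell to 0.509-fold (log2 -0.98 ± 0.16 SE, adjusted p = 0.00271 in edgeR). It stood at 34.7 CPM ± 6.29 in sgControl cells after PBS and at 16.8 CPM ± 4.13 after SCF (SD, n = 3). In sgEGR1 cells it stood at 37.9 CPM ± 10.9 and 20.3 CPM ± 4.00. Within the guides IRS2 was called in sgControl cells (edgeR adjusted p = 0.0312) and not in sgEGR1 cells (0.0616). It also differed between replicate 1 (34.1 CPM on average) and replicates 2 and 3 (24.1 CPM), where it was called. PTPN1, a tyrosine phosphatase, rose 1.22-fold (adjusted p = 0.000648), the adaptor CRKL rose 1.14-fold (adjusted p = 0.00416) and RASA2, which inactivates RAS, rose 1.17-fold (adjusted p = 0.0370). GAB3, of the same adaptor family as GAB1 and GAB2, fell to 0.907-fold (adjusted p = 0.0257). KITLG, the gene of SCF, had at most 8 counts in a library and EPO had none, and neither was tested.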

How the data were processed

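Counts per gene from 12 HUDEP-2 RNA-seq libraries were analysed. Per the labels and the study's methods, the authors aligned paired reads to hg38 with HISAT and deposited a table of estimated counts per gene from StringTie; its annotation and strand setting are not given in the sources used here, and the methods and labels name different library kits. All deposited values were whole numbers, and rows were matched by symbol. Each replicate was described in the study's methods as individually isolated.

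Genes were filtered with filterByExpr (minimum count 10), which left 15492 genes, scaled by TMM and fitted with 1 coefficient per group in edgeR 4.0.16 (R 4.3.3, limma 3.58.1) by the quasi-likelihood test, with Benjamini-Hochberg adjustment over all genes tested and a threshold of 0.05. The average SCF response is the mean of the responses within the guides. Intervals are 95% intervals from the fit, and standard errors are the log2 fold change over the root of F. Permutation tests of KIT and EPOR were exact and two-sided, on log2(CPM + 1). Levels per kilobase used MANE Select transcripts of GENCODE on GRCh38, and coding or all-exon length as alternatives. Depth was 23498065 to 32039680 counts; the floor of 3 counts covers counting error only. DESeq2 1.42.0, other scalings, no filter, a replicate block, a replicate 1 term, replicates 2 and 3 alone and each library left out were alternatives. Scripts were tested on simulated data.

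The members, the gene lists and the tests were chosen with earlier results of these data known. Every member is accounted for; values in every library are given for KIT, EPOR, called members, the 3 highest and 3 lowest levels per kilobase and the 3 largest average SCF responses, and of the other pathway genes at most 6 called ones are named. EGR1 is given as the check of the guide. Between the guides, the deviations of same-numbered libraries from their group means correlated at 0.102 to 0.269 in every pair. The difference of replicate 1 that all groups share also gives such correlations, so they cannot decide whether the numbers pair these samples. The labels give no pairing, and the main tests took none. No 2 libraries of a group agreed within sampling noise (chi-square per degree of freedom 4.28 or more).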

Additional observations from a re-analysis of the deposited data

How the results depend on the processing

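No called result changed direction among 828 alternative values for 43 named gene results: 27 lost a call and 33 gained one, and of the 768 that stayed on the same side of the threshold 21, none of them called, changed sign. Counts of members are given with the percent of all genes called. In the average SCF response (3 members, 9.03%), DESeq2 gave 5 (13.3%), no filter on low counts 1 (4.09%), replicates 2 and 3 alone 5 (11.3%), the replicate 1 term 8 (18.5%), that term without library 3 of the group labelled sgEGR1 with SCF 8 (15.4%), and single libraries left out 0 to 4. Against 0 in sgControl cells, DESeq2 gave 1 (6.3%), the replicate 1 term 2 (8.32%) and that term without the same library 1 (7.49%). Against 0 in sgEGR1 cells these gave 0 (6.41%), 3 (8.56%) and 1 (4.92%), and replicates 2 and 3 alone 1 (4.45%). Leaving out single libraries gave 0 to 0 in both. The test over 4 groups called 2 with DESeq2 (8.89%), 6 with the replicate 1 term (12.3%), 3 with that term without the same library (10.7%), 2 with replicates 2 and 3 alone (5.89%), and 0 to 1 with single libraries left out; KSR1 was called without sgControl PBS replicate 1. Coding length kept 3 of the 5 highest members per kilobase, with NRAS and GRB2 in place of RPS6KA1 and INPP5D; all-exon length kept 4, with EPOR before MAP2K2.

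For SCF against PBS, same-numbered libraries correlated in their deviations at 0.272 and 0.230 for replicate 1 but as low as 0.00766 for the others, so the numbers were not taken as pairs. The replicate block gave 1 member in sgControl cells (SH2B3; 7.64%), 4 in sgEGR1 cells (SH2B3, SOS2, CBLB and EPOR; 7.97%), 7 in the average response (18.1%) and 4 in the test over 4 groups (11.1%). Between the guides the replicate block changed no call.

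FYN had few counts, and PIK3CD and HRAS too few to test. With 3 libraries a group, EPOR and SOS2 stood near the threshold, and a missed threshold does not show that a level stayed the same.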
